A study of Homo sapiens with 4 samples.

Results

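TMEM126A and 9 further assembly factors of respiratory complex I (TMEM126B, NDUFAF1, ECSIT, ACAD9, TIMMDC1, NDUFAF2, NDUFAF3, NDUFAF4 and FOXRED1) were followed in 4 RNA-seq libraries of human breast cancer cell lines. The genes were taken by symbol from the gene tables, and all 10 were found among 39261 listed genes. The MDA-MB-231 line, triple-negative and mesenchymal in character, was infected with a lentivirus for TMEM126A knockdown or with a control vector, named sh-NC in the design text. The MCF10-Ca1a line (Ca1a), a malignant derivative of MCF10A mammary epithelial cells, was infected with a lentivirus for TMEM126A overexpression or with a control vector, named pCDH there. Each of the 4 groups held 1 library, so differences lack a check across cultures and no own p-value is given. The hairpin sequence, the promoter of the overexpression construct and the pooled or clonal state of the cells do not appear in the labels. The lines were grown in different media, so line and medium cannot be told apart.

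Complex I oxidises NADH and passes the electrons to ubiquinone while pumping protons across the inner mitochondrial membrane. It is built from preassembled modules: the NADH-oxidising N module, the ubiquinone-reducing Q module, and membrane modules named after the mitochondrially encoded subunits ND1, ND2, ND4 and ND5. Assembly factors bind and stabilise these intermediates and are absent from the finished enzyme. TMEM126A, an inner membrane protein mutated in a recessive optic atrophy, takes part in building the ND4 module. Its paralog TMEM126B works with NDUFAF1, ECSIT and ACAD9 in the mitochondrial complex I assembly (MCIA) complex, which builds the ND2 module.

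The 10 genes lie on 6 chromosomes, and TMEM126A and TMEM126B are neighbours. TMEM126A spans positions 85647967 to 85656547 of chromosome 11 on the plus strand of GRCh38, has 6 transcripts in GENCODE release 29 and shares no exonic base with another gene there. TMEM126B lies upstream on the same strand from 85628573 to 85636539, and FOXRED1 lies farther along the chromosome from 126269055 to 126278131. Both paralogs stood more than 2-fold higher in the MDA-MB-231 control than in the Ca1a control (values below). By FPKM NDUFAF3 was also more than 2-fold higher there, and its window is not shown. A link between promoter sequence and level was not tested. The 250 bases before the RefSeq starts of the paralogs (GRCh38.p14, plus strand) are shown. Capitals mark matches to the ETS core CCGGAAG and the NF-Y box CCAAT.
TMEM126A, chr11:85647717-85647966: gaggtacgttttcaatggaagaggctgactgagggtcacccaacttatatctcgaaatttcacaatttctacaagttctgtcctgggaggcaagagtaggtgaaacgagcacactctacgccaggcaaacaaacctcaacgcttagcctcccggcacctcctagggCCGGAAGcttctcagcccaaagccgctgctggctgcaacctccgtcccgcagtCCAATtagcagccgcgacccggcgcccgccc
TMEM126B, chr11:85628323-85628572: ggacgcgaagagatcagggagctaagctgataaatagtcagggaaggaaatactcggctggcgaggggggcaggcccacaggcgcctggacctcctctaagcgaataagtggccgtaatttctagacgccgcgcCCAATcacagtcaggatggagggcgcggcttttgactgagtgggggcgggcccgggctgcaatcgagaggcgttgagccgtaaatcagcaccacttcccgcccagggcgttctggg
TMEM126A held an ETS core 84 bases before the start and a CCAAT box 31 bases before it. TMEM126B held a CCAAT box 116 bases before its start and no ETS core in this window. Promoter windows were found for 9 of the 10 genes. Searched on both strands over all windows of a gene, the ETS core was found in 3 of the 9 (NDUFAF4, TIMMDC1 and TMEM126A) and in 10.2% of 27305 genes. CCAAT was found in 5 of the 9 (ECSIT, NDUFAF2, NDUFAF3, TMEM126A and TMEM126B) and in 37% of genes. The NRF1 motif, GCGCA and GCGC separated by any 1 base, was found in ACAD9 alone among the 9 and in 6.2% of genes, and the YY1 core ATGGCNGC in 0 of the 9 and 5.22% of genes. These matches describe the letters of the windows and are not binding sites.

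Depth was 20673373 to 21405193 reads per library. The line markers followed the labels: EPCAM stood at 131 FPKM (a level per transcript length and depth) in the Ca1a control and 3.1 FPKM in the MDA-MB-231 control, and the mesenchymal factor ZEB1 at 0.132 and 8.31 FPKM. Among 12 markers of fibroblasts, adipocytes, endothelium and immune cells, 11 stayed under 2 FPKM throughout, and the adipocyte gene ADIPOQ was listed at 0 in all 4. The exception was CD68, at 28.9 to 98.6 FPKM. Without CD68 the other 11 summed to 3.11 FPKM (control) and 3.13 FPKM (knockdown) in MDA-MB-231, and to 2.28 FPKM (control) and 2.66 FPKM (overexpression) in Ca1a.

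TMEM126A itself was far lower in the knockdown library and far higher in the overexpression library than in the matching control. In MDA-MB-231 it had 556 reads in the control and 23 in the knockdown library. Per transcript length its level went from 35.5 FPKM to 1.07 FPKM. The knockdown library kept 4.09% of the control's normalized counts (95% counting interval 2.57% to 6.19%, exact conditional binomial). In Ca1a it had 265 reads and 17.3 FPKM in the control, and 9381 reads and 651 FPKM in the overexpression library. The ratio of counts there was 35.4 (31.3 to 40.1). Of all genes 0.188% were at least 2-fold lower and 0.271% at least 2-fold higher after knockdown with an interval that leaves out 1. After overexpression the shares were 0.314% in each direction. Ranked by FPKM among all listed genes, TMEM126A moved from place 1605 in the MDA-MB-231 control to 11262 in the knockdown library. In Ca1a it moved from place 2965 to 63. The authors' deposited log2 fold change of TMEM126A was -4.61 for the knockdown and 5.15 for the overexpression comparison. Their p-values rest on 1 library per group, with no replicate to measure the spread between cultures, and are not given here. Reads of the construct and of the endogenous gene are not separated in the gene counts. In RNA of a whole culture, less RNA per cell and fewer cells that express the gene cannot be told apart.

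**Figure D1:**
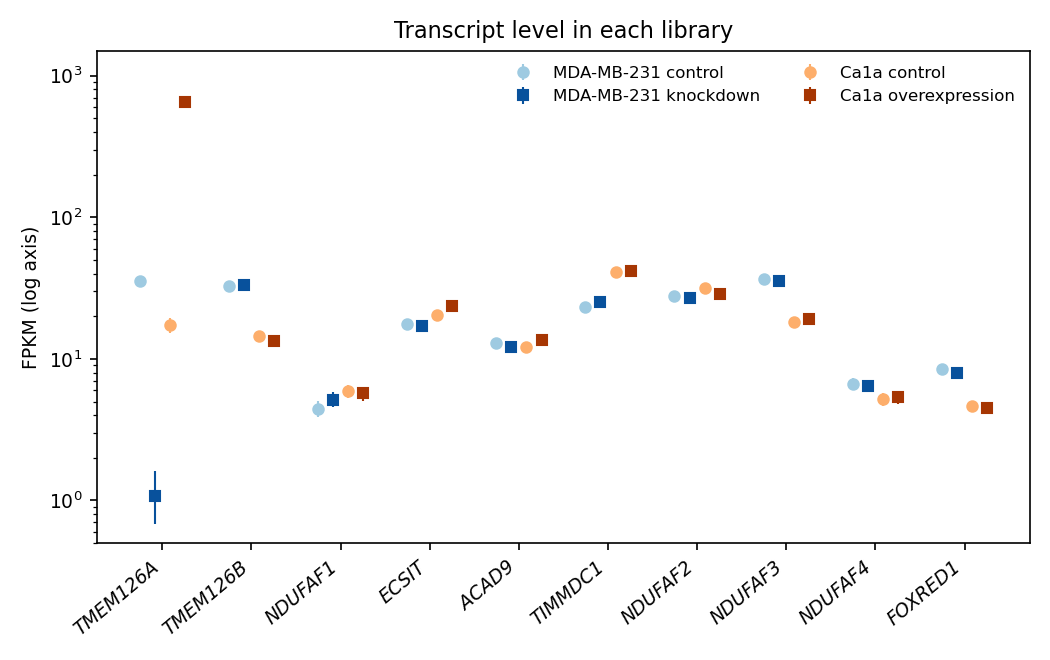
FPKM on a log axis of the 10 genes in the 4 libraries. Circles are controls and squares the knockdown and overexpression libraries. Bars carry the 95% Poisson interval of the counted reads over to the separately deposited FPKM, which need not rest on the same reads. TMEM126A spans 1.07 to 651 FPKM, while the other 9 genes stay within FPKM ratios of 0.914 to 1.17 in each line.

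With the deposited scale, none of the other 9 assembly factors was beyond counting error in the knockdown comparison: 0 were higher and 0 lower. The background was 16.8% higher and 11.3% lower among 13292 genes that averaged 20 or more normalized counts. Scaled by total reads, the shares over these genes were 11.9% and 16.7%, so which direction is the more frequent depends on the scale. On that scale FOXRED1 was lower beyond counting error (0.838 to 0.983). With the deposited scale, a size of at least 1.2-fold besides was reached by 5.33% upward and 3.39% downward, and by 0 of the 9. Among 7262 genes with a mean of 200 to 2000, the range that holds the 9 factors, the shares were 14.4% and 11.7%. Ratios of the 9 ran from 0.928 to 1.14 with a median log2 ratio of -0.04, against 0.01 over all 13292 genes. Their intervals reached no lower than 0.851 and no higher than 1.36, so changes of 1.5-fold or more in either direction lay outside the counting error of each. In the overexpression comparison 2 of the 9 were higher beyond counting error and 0 lower, beside 18.1% and 16.2% of 12111 genes. Among 6569 genes with a mean of 200 to 2000 the shares were 17.9% and 15.3%. With at least 1.2-fold required besides, the shares over all genes were 5.76% and 5.94%, and 0 of the 9 remained. The 9 ratios ran from 0.94 to 1.12, with a median log2 ratio of 0.08 against 0.01 over all genes tested.

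The paralog TMEM126B differed little within each line. It had 1597 normalized counts in the MDA-MB-231 control and 1547 in the knockdown library, a ratio of 0.969 (0.903 to 1.04). Ca1a cells gave 663 counts in the control and 702 in the overexpression library, a ratio of 1.06 (0.951 to 1.18). Its FPKM went the other way in both lines, from 32.9 to 33.2 with knockdown and from 14.5 to 13.3 with overexpression. FPKM gave a ratio of 0.918 in Ca1a, below the interval of the counts, so the direction of this small difference depends on the measure.

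With the deposited scale, 2 of the 9 other genes differed beyond counting error, the MCIA factors ECSIT and ACAD9. Both differences were small and in Ca1a. The other MCIA factors, TMEM126B and NDUFAF1, were within counting error in both comparisons. ECSIT, which also acts as an adaptor in Toll-like receptor signalling, had 922 counts in the Ca1a control and 1029 in the overexpression library, a ratio of 1.12 (1.02 to 1.22). ACAD9, an acyl-CoA dehydrogenase family member that serves as an assembly factor, had 1194 and 1335 counts, also a ratio of 1.12 (1.03 to 1.21). ECSIT and ACAD9 were 1.17-fold and 1.11-fold higher by FPKM. With 18.1% of all genes higher beyond counting error, 2 of 9 is near the background. In the knockdown comparison neither differed beyond counting error. ECSIT had 757 normalized counts in the control and 747 in the knockdown library, a ratio of 0.988 (0.892 to 1.09). ACAD9 had 1183 and 1155, a ratio of 0.976 (0.899 to 1.06). NDUFAF1, the chaperone of the same complex, was the least counted of the 9 in both controls and had the widest intervals on a log scale. It had 243 normalized counts in the MDA-MB-231 control and 277 in the knockdown library, a ratio of 1.14 (0.955 to 1.36). Ca1a cells gave 316 counts in the control and 297 in the overexpression library, a ratio of 0.94 (0.799 to 1.1).

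TIMMDC1, NDUFAF3 and NDUFAF4 act on the ND1 and Q modules at the start of the pathway. TIMMDC1, which builds the ND1 module, had 930 normalized counts in the MDA-MB-231 control and 1002 in the knockdown library, a ratio of 1.08 (0.985 to 1.18). The Ca1a libraries gave 1604 counts in the control and 1699 in the overexpression library, a ratio of 1.06 (0.989 to 1.13). NDUFAF3, which works on the Q module together with NDUFAF4, was the closest to a ratio of 1 in both lines. It had 1118 normalized counts in the MDA-MB-231 control and 1109 in the knockdown library (0.992, 0.912 to 1.08). In Ca1a it had 588 and 595 counts (1.01, 0.901 to 1.14). NDUFAF4 gave a ratio of 0.974 (0.851 to 1.12) in MDA-MB-231, from 440 and 428 normalized counts, and 1.06 (0.916 to 1.23) in Ca1a, from 358 and 380 counts. None of these intervals left out 1.

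NDUFAF2 and FOXRED1 act later. NDUFAF2, a paralog of the subunit NDUFA12 that holds its place before the N module is completed, had 595 normalized counts in the MDA-MB-231 control and 573 in the knockdown library, a ratio of 0.964 (0.858 to 1.08). The Ca1a libraries gave 682 counts in the control and 671 in the overexpression library, a ratio of 0.984 (0.883 to 1.1). FOXRED1, an oxidoreductase-like factor needed for the later membrane stages, had 1275 normalized counts in the MDA-MB-231 control and 1184 in the knockdown library. Its ratio of 0.928 was the lowest of the 9, and its interval, 0.857 to 1.01, just held 1. With total reads, the median gene or TMM as the scale, that interval left out 1. In Ca1a FOXRED1 had 664 and 648 counts, a ratio of 0.976 (0.874 to 1.09).

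**Figure D2:**
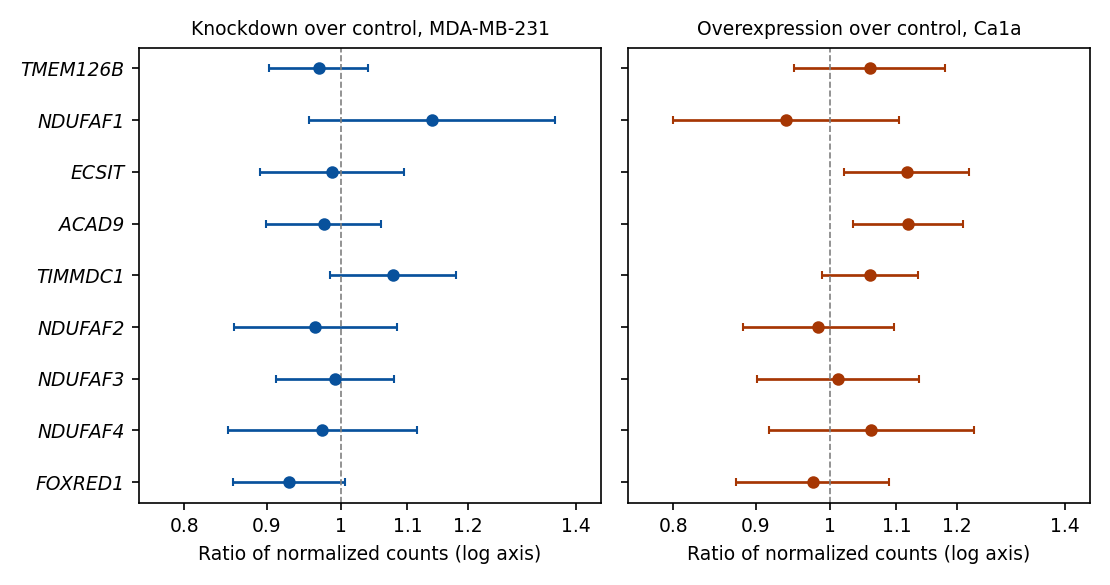
Ratios of normalized counts with 95% counting intervals for the 9 assembly factors other than TMEM126A, on a log axis, with the knockdown comparison on the left and the overexpression comparison on the right. In Ca1a these are read counts as deposited. The dashed line marks 1, which only the intervals of ECSIT and ACAD9 in Ca1a leave out.

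By FPKM, every gene other than TMEM126A, ECSIT and ACAD9 differed more between the control libraries of the lines than between the libraries of either line. Of the 10 genes, 3 were at least 2-fold higher by FPKM in the MDA-MB-231 control and 0 in the Ca1a control. Among 11363 genes with a mean of at least 1 FPKM, 25.1% and 13.3% were that far apart. TMEM126B was 2.26-fold higher in the MDA-MB-231 control (32.9 against 14.5 FPKM), TMEM126A 2.05-fold higher (35.5 against 17.3 FPKM) and NDUFAF3 2.02-fold higher (36.7 against 18.1 FPKM). FOXRED1 fell just short, at 8.53 against 4.62 FPKM, 1.84-fold higher. In the other direction TIMMDC1 was 1.77-fold higher in the Ca1a control (41.2 against 23.3 FPKM). At 1.5-fold or more, 4 of the 10 were higher in MDA-MB-231 and 1 in Ca1a, beside 38.4% and 20.9% of all genes. The remaining 5 were within 1.5-fold. For NDUFAF4 the levels were 6.68 FPKM in MDA-MB-231 and 5.19 FPKM in Ca1a, and for ACAD9 12.9 and 12.2 FPKM. NDUFAF1 stood at 4.41 and 5.89 FPKM, ECSIT at 17.6 and 20.3 FPKM, and NDUFAF2 at 27.8 and 31.5 FPKM.

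As reads scaled to library totals (CPM), set across the separate tables of the lines, the line differences were similar. TMEM126B was 2.47-fold higher in the MDA-MB-231 control (2.25 to 2.70), TMEM126A 2.16-fold (1.86 to 2.51), FOXRED1 1.97-fold (1.79 to 2.16) and NDUFAF3 1.95-fold (1.76 to 2.16). TIMMDC1 was 1.68-fold higher in the Ca1a control (1.55 to 1.83). Of the 9 genes other than TMEM126A, 8 had both libraries of one line above both of the other by FPKM, and ACAD9 did not. Among genes with a mean of at least 1 FPKM, 56.1% stood higher in both MDA-MB-231 libraries and 34.9% in both Ca1a libraries, so this separation is common to most genes.

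The order of the levels also differed between the lines. In the MDA-MB-231 control NDUFAF3, TMEM126A and TMEM126B led, and neighbours among them had overlapping counting intervals. Below them stood NDUFAF2, TIMMDC1, ECSIT, ACAD9, FOXRED1, NDUFAF4 and NDUFAF1, each apart from the next by its interval. These intervals carry the error of the counted reads over to FPKM, which were deposited separately and need not rest on the same reads. They leave out error in the length that FPKM divides by, so an order read from them is approximate. In the Ca1a control TIMMDC1 and NDUFAF2 led, each apart from the next. ECSIT, NDUFAF3, TMEM126A and TMEM126B followed with intervals that overlapped between neighbours, then ACAD9 alone, and last NDUFAF1, NDUFAF4 and FOXRED1, which overlapped their neighbours. The control levels of TMEM126A were thus among those of the other factors in both lines. In the knockdown library it was the lowest of the 10, below NDUFAF1 at 5.16 FPKM, and in the overexpression library the highest, above TIMMDC1 at 42 FPKM.

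**Figure D3:**
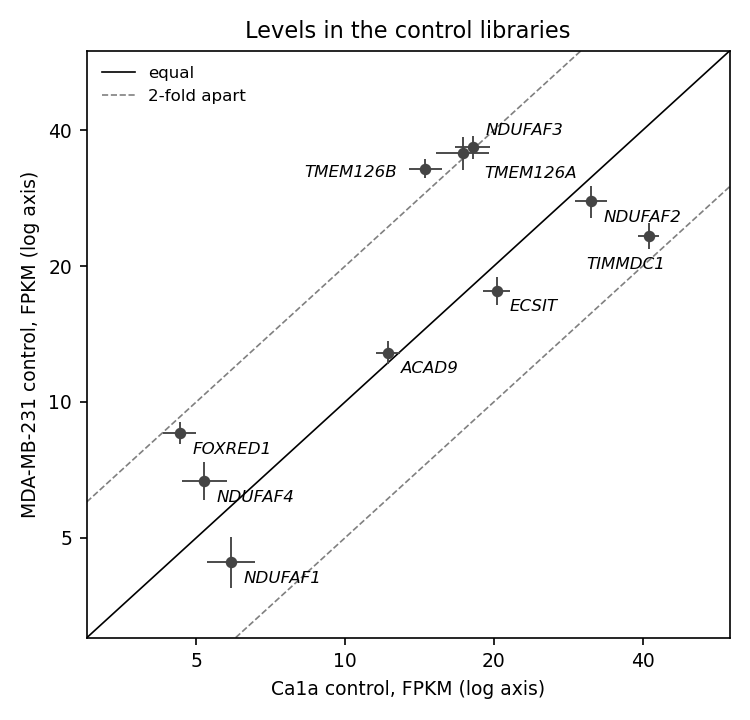
FPKM of the 10 genes in the MDA-MB-231 control (vertical) against the Ca1a control (horizontal), both on log axes. Bars carry the 95% Poisson interval of the counted reads over to the separately deposited FPKM, which need not rest on the same reads. The solid line marks equal levels and dashed lines a 2-fold difference, which TMEM126A, TMEM126B and NDUFAF3 pass.

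Among 13 other genes of complex I assembly, 2 were higher and 0 lower beyond counting error in the knockdown library, a share near the 16.8% of all genes that were higher there. CHCHD4, the intermembrane space import receptor, was 1.22-fold higher (1.1 to 1.35), and OXA1L, the inner membrane insertase, 1.1-fold higher (1.04 to 1.16). In the overexpression library 4 of the 13 were higher and 0 lower, beside 18.1% and 16.2% of all genes. NDUFAF7, a methyltransferase that modifies a Q module subunit, was 1.14-fold higher (1.004 to 1.29), CHCHD4 1.13-fold higher (1.03 to 1.24), DMAC2, listed as ATP5SL, 1.11-fold higher (1.01 to 1.23) and OXA1L 1.08-fold higher (1.02 to 1.14). The NDUFAF7 interval held 1 with the median gene or TMM as the scale and that of DMAC2 with TMM, which leaves 3 and 2 of the 13 higher. CHCHD4 and OXA1L were higher in both comparisons, as were 4.93% of the 9582 genes with a mean of 100 or more normalized counts in each. The 13 had a median log2 ratio of 0.08 with knockdown and 0.11 with overexpression.

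The background for the counts of subunits was 16.8% of all genes higher and 11.3% lower with knockdown, and 18.1% and 16.2% with overexpression. Over all modules 8 of 35 measured subunits were higher and 1 lower with knockdown, and 13 higher and 0 lower with overexpression. Scaled by total reads, the knockdown counts were 3 higher and 3 lower, beside 11.9% and 16.7% of all genes on that scale. With the median gene or TMM as the scale they were 6 and 2, beside 14.7% and 13.4% of all genes. How far higher subunits predominate with knockdown thus depends on the scale. The overexpression counts were 13 and 0 under each scale tried. Of 6 nuclear-encoded subunits of the ND4 module, which TMEM126A helps to build, 2 were higher beyond counting error in the knockdown library and 0 lower. NDUFB10 was 1.15-fold higher (1.05 to 1.26) and NDUFB6 1.1-fold higher (1.02 to 1.2), the latter within counting error when scaled by total reads. In the overexpression library 4 of the 6 were higher and 0 lower: NDUFB1 was 1.21-fold higher (1.05 to 1.4), and NDUFB4, NDUFB5 and NDUFB11 were 1.11-fold higher each. The median log2 ratio of this module was 0.11 with knockdown and 0.15 with overexpression. Of 6 ND2 module subunits, whose assembly involves the MCIA complex, 3 were higher with knockdown (1 when scaled by total reads) and 2 with overexpression, among them NDUFS5, 1.3-fold higher (1.22 to 1.38). Of the 6 ND5 module subunits 0 were higher with knockdown and 2 with overexpression, and with total reads 2 were lower with knockdown (NDUFB2 and NDUFB8). Of the 5 Q module subunits 1 was higher with knockdown and 2 with overexpression. Of 9 measured N module subunits, 2 were higher with knockdown (0 when scaled by total reads) and 1 lower, NDUFS6 at a ratio of 0.914 (0.841 to 0.993), while 3 were higher with overexpression. None of the 3 measured ND1 module subunits was beyond counting error in either. NDUFA6 and NDUFA3 were not measured, with 0 or 1 read in each library.

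**Figure D4:**
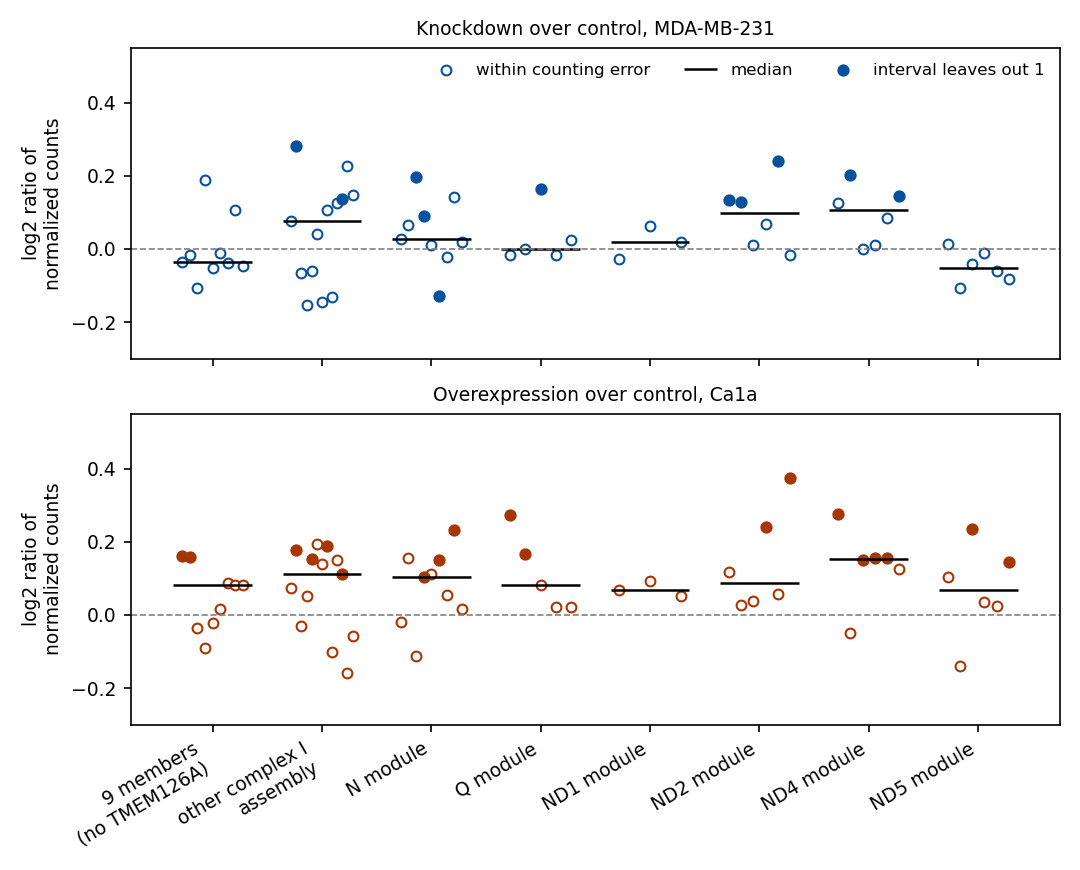
Log2 ratios of normalized counts (in Ca1a, read counts as deposited) for each measured gene of the assembly factor lists and complex I modules, with knockdown above and overexpression below. Filled points have a 95% counting interval that leaves out a ratio of 1, open points do not, and black lines are list medians. The 9 members have a median of -0.04 with knockdown and 0.08 with overexpression.

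Assembly factors of the other respiratory complexes gave counts near the background in MDA-MB-231: of 30 measured, 3 were higher and 4 lower beyond counting error in the knockdown library, beside 16.8% and 11.3% of all genes. UQCC3, a complex III factor, was 1.24-fold higher (1.12 to 1.37), the complex IV factor CMC1 1.19-fold higher (1.05 to 1.35), and the copper chaperone COX19 stood at a ratio of 0.857 (0.748 to 0.982). In the overexpression library 9 of 29 were higher and 1 lower, beside 18.1% and 16.2% of all genes. COA3, a complex IV factor, was 1.46-fold higher (1.19 to 1.80), the copper chaperone COX17 1.39-fold higher (1.22 to 1.57) and UQCC1 1.29-fold higher (1.15 to 1.44). The median log2 ratio was 0.02 with knockdown and 0.07 with overexpression.

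Of 10 measured regulators of mitochondrial gene expression, 0 were higher and 2 lower with knockdown, and of 9 in Ca1a, 2 were higher and 3 lower with overexpression. All genes gave 16.8% and 11.3% with knockdown and 18.1% and 16.2% with overexpression. TFAM, which packages mitochondrial DNA and helps to start its transcription, was lower with knockdown at a ratio of 0.921 (0.870 to 0.974) and 1.14-fold higher with overexpression (1.06 to 1.22). Of 9582 genes with a mean of 100 or more normalized counts in each comparison, 2.41% had both differences beyond counting error. PPRC1, the other regulator lower with knockdown, stood at a ratio of 0.941 (0.892 to 0.994). NRF1, a transcription factor of nuclear genes for mitochondrial proteins, was lower with overexpression at a ratio of 0.818 (0.707 to 0.946), as were the mitochondrial RNA polymerase gene POLRMT at 0.822 (0.742 to 0.910) and the nuclear receptor gene ESRRA at 0.857 (0.812 to 0.905).

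Few genes followed the pattern of TMEM126A. A mean of 100 or more normalized counts in each comparison was reached by 9582 genes, of which 231 (2.41%) were lower after knockdown and higher after overexpression beyond counting error. Another 363 went the opposite way in both, 472 were higher in both and 309 lower in both. Likeness was taken as the smaller of the 2 absolute log2 ratios over these 2 comparisons, which is 4.61 for TMEM126A. The next gene, JDP2, a repressor of AP-1 transcription, reached 0.38. It was 1.52-fold lower with knockdown (1.28 to 1.81) and 1.3-fold higher with overexpression (1.07 to 1.59). DDAH1, which degrades methylarginines, followed with a likeness of 0.35, PDK4, a mitochondrial kinase that inhibits pyruvate dehydrogenase, with 0.34, and the fatty acid desaturase gene SCD and RTKN2 with 0.33 each. No other complex I assembly factor among the 10 was beyond counting error in both comparisons.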

How the data were processed

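Per the labels, total RNA was extracted with TRIzol. Per the file headers, the authors' tables hold base means. In the Ca1a table these are read counts as deposited, with whole numbers throughout. In the MDA-MB-231 table the deposited signal equals reads over a size factor. Dividing by the smallest positive value returned whole numbers (tolerance 1e-06), which served as reads. FPKM of the 4 libraries were deposited in another table, and what the authors divided by is not stated in the labels. Log2 fold changes, p-values and adjusted p-values in the deposited tables are the authors' own. The submitters' processing notes name HISAT2, Cufflinks, HTSeq and DESeq with GRCh38.p5 and hg38, and give no versions and no strand setting.

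Intervals are at 95%, exact Poisson for levels and conditional binomial (exact, Clopper-Pearson) for ratios. Both cover counting error only, since each group holds 1 library. They treat reads as independent molecules, which reads without molecular identifiers need not be, so they can be too narrow. A gene was called beyond counting error where its interval leaves out 1. The interval code was run on simulated Poisson counts, the model that the intervals assume. That run checks the code alone and does not bear on the spread between libraries. Members and lists were chosen with earlier results of these data known. Genes named are the 10 members, up to 3 per list and comparison with the largest ratios among those whose interval leaves out 1, and the 5 most like TMEM126A. NDUFB11, OXA1L and TFAM in Ca1a, NDUFA6, NDUFA3, NDUFB2 and NDUFB8 were named after their values were seen. Gene positions were matched by Entrez ID to GENCODE release 29 (GRCh38), and promoters were taken from RefSeq (GRCh38.p14) by gene ID. Where counting ignores strand, reads in exonic bases that ACAD9, FOXRED1, NDUFAF3 and TIMMDC1 share with an opposite gene cannot be told apart from that gene's. DALRD3 covers 21.7% of the exonic bases of NDUFAF3, and CD80 29.2% of those of TIMMDC1. Alternatives were scaling by total reads, median ratio or TMM, FPKM, CPM, TPM, a 99% interval, thresholds of 1.2-fold and 1.5-fold, FPKM + 0.5 and a mean of at least 5 FPKM. The share over genes with a mean of 200 to 2000, and the related lists under the other scales, were added after seeing the data. Tools were edgeR 4.0.16 in R 4.3.3 (TMM), scipy 1.17.1, matplotlib 3.10.9, pandas 2.3.3 and numpy 2.4.6 under python 3.11.15.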

Additional observations from a re-analysis of the deposited data

How the results depend on the processing

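With 1 library per group no replicate could be left out, so cultures and constructs cannot be told apart. No paired analysis was possible because each group holds 1 library. The TMEM126A ratio stayed inside its counting interval under total reads, the median ratio, TMM and FPKM in both comparisons. FPKM put the knockdown ratio at 0.0302 and the overexpression ratio at 37.6. In the knockdown comparison 1 of 10 genes was beyond counting error, and 2 were under each of total reads, the median ratio and TMM. FOXRED1 was the gene added. These scales shifted every ratio by -0.03, -0.01 and -0.01 on the log2 scale. In the overexpression comparison 3 genes were beyond counting error and 1 remained when at least 1.2-fold was required, which ECSIT and ACAD9 do not reach. Between the controls 3 genes were at least 2-fold apart and 5 at least 1.5-fold. With CPM, and with FPKM + 0.5, 2 were 2-fold apart, and with a 99% interval 2 genes were beyond counting error in the overexpression comparison. Of the alternative values for the ratios of the 9 other genes, 71 stayed inside the counting interval and 1 did not, that of TMEM126B by FPKM in Ca1a. For the related lists and all genes, 59 counts under another scale stayed within 1.5-fold of the main count and 7 did not, counting both directions together. Counts of 242 to 1699 reads per library set the intervals of the 9 genes, and differences inside them were not detectable at this depth.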
